A study of Sus scrofa with 12 samples.

Results

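The data concern 68 pig genes for chromatin remodelers and their partners and for the enzymes that add methyl groups to histone lysines or remove them, in porcine aortic valve interstitial cells (paVICs), the fibroblast-like cells of the valve leaflet. Members were chosen by symbol from the count table. They are the KMT2, KMT5, SETD, NSD, KDM (KDM3A was left out by the rule), CHD, ARID, SMARC, ASXL and BAZ families with ATRX, BPTF, EZH1 and EZH2. Of 31908 genes listed, 70 matched by name, and 68 of these also reached the minimum of 120 counts over the 12 libraries. The 2 left out were ASXL3, with 39 counts, and SMARCD2, with 55 counts. The members nearest to the minimum were ARID3A with 156 counts, SETD9 with 570, SETD4 with 618 and KDM5D with 650.

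The study asked whether dantrolene, a blocker of the ryanodine receptor calcium channel, changes the response of paVICs to lysophosphatidylcholine (LPC), a lipid linked to valve calcification. Wild-type cells were kept for 24 h in low-serum medium in 4 groups of 3 libraries, which were vehicle, 10 μM LPC, 60 μM dantrolene, and LPC + dantrolene at those same doses. Per the labels, the vehicle group held 0.6% DMSO and 0.1% ethanol. The LPC group held LPC in ethanol with 0.6% DMSO, and the dantrolene group dantrolene in DMSO with 0.1% ethanol. The LPC + dantrolene group held dantrolene in DMSO and LPC in ethanol. The labels give no percentage for the solvent that an agent was dissolved in. Per the authors' methods, each group held 1 library from each of 3 primary isolations. Each isolation was pooled from several hearts, with the valve endothelium wiped off. Equal replicate numbers (1, 2 and 3) were taken as the same isolation, which the labels do not state. Cells had been frozen and passaged before treatment.

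Nucleosome remodelers are ATPases of the SNF2 family that slide, evict or exchange histones, and they work in complexes such as SWI/SNF, ISWI and those of the CHD proteins. Histone lysine methyltransferases, most with a SET domain, write marks such as methylation of H3K4 at promoters, of H3K36 along transcribed genes and of H3K27 at silenced genes, and the KDM demethylases remove them. In fibroblasts such proteins are known to take part in the switch between quiescent and activated states.

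Libraries held 16489684 to 24105935 counts, and 13216 genes passed the filter on low counts, among them all 68 members. Levels are given as CPM, counts per 1000000 of a library size scaled by the trimmed mean of M values (TMM). At these depths 3 counts correspond to 0.114 to 0.186 CPM. The labelled cell type was checked first. All 11 fibroblast and interstitial markers were listed, with summed levels of 89900 to 92900 CPM in vehicle, 56500 to 89400 with LPC, 56400 to 80000 with dantrolene and 66700 to 106000 with both. The 5 myofibroblast markers summed to 22400 to 34500, 15800 to 25900, 15300 to 22400 and 9240 to 31900 CPM in the same order. The 8 endothelial markers summed to 105 to 172 CPM over all libraries. The highest were ERG (40 to 87 CPM), PECAM1 (24 to 44) and CDH5 (13 to 38), while KDR stayed under 1 CPM throughout. The 7 leukocyte markers summed to 12.4 to 28.5 CPM, with CD14 at 10 to 24 CPM and PTPRC, CD163, CD3E and LYZ under 1. The part of such cells in the results below was not tested.

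Replicate 2 of LPC + dantrolene stood apart from the other treated libraries before any test. Its TMM factor was 0.863 against 0.923 to 1.15 in the other 8 treated libraries and 0.879 to 0.918 in vehicle. Its 10 most abundant genes took 17.1% of counts, the highest share of the 12 libraries. The correlation of log2 CPM across genes with its fellow replicates was 0.901 and 0.917, against 0.949 to 0.975 for the other pairs of replicates. It was the highest of the 12 libraries in 12 members and the lowest in 22. Such counts, here and below, were taken over the members alone, so they do not tell the members from other genes. Counts of calls in LPC + dantrolene against vehicle and in the interaction are given with and without it. Fold changes of LPC + dantrolene against LPC or against dantrolene include it, as do the counts of groups that do not overlap.

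LPC raised 13 of the 68 members and lowered none. With edgeR's quasi-likelihood test and Benjamini-Hochberg adjustment over all genes tested, written below as the edgeR adjusted p, 19.1% of members were called higher at 0.05, where 8.54% of all genes were. The 13 were ATRX, SMARCAD1, SMARCA5, SMARCA1, BAZ1A, BAZ2B, CHD1, CHD9, ARID2, ARID4A, ARID4B, KDM7A and SETD2, with rises of 2.36-fold to 6.33-fold. For lower calls the counts were 0 members and 0.144% of all genes. At an unadjusted p under 0.05, 15 members were higher and 0 lower, where 1726 and 373 of all 13216 genes were. DESeq2 also called 0 members lower. The median log2 fold change was -0.06 over the 68 members and -0.18 over all genes tested. Scaled by total counts alone, these medians became 0.11 and -0.0023, and the count of higher members was again 13. Without regard to a test, all 3 LPC libraries lay above all 3 vehicle libraries in 17 members (25%), where 16.6% of all genes did so, and below them in 5 (7.35%), where 10.6% did. For dantrolene the counts were 15 members above, against 16.1% of all genes, and 5 below, against 11%. For LPC + dantrolene they were 3 above, against 4.71%, and 3 below, against 5.74%. Replicate 2 of LPC was the lowest of the 12 libraries in 19 of the 68 members. Since this is bulk RNA, fewer cells of a type and less RNA per cell cannot be told apart.

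**Figure D1:**
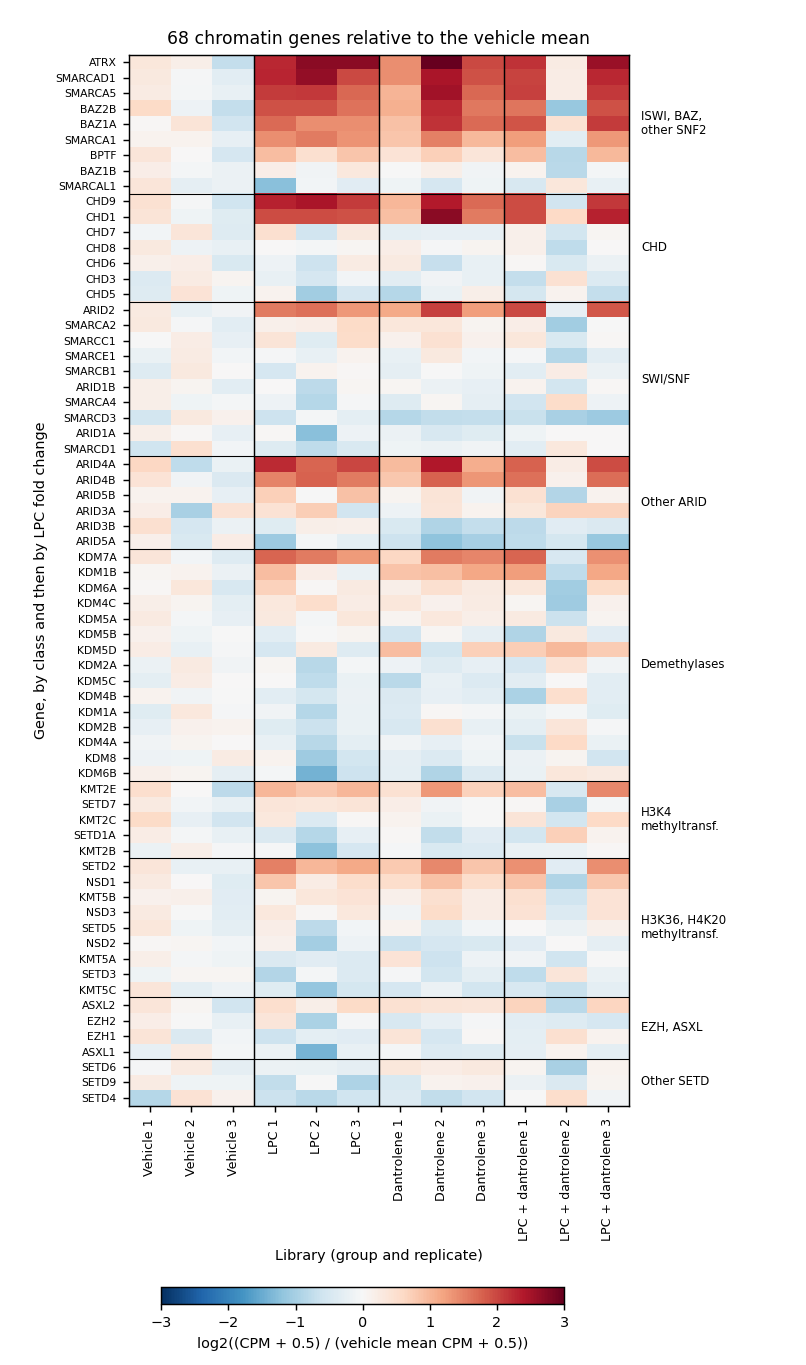
Heat map of the 68 members (rows, by class and within it by LPC fold change) in the 12 libraries (columns). Color gives log2 of (CPM + 0.5) over (vehicle mean CPM + 0.5), with colors capped at 3 in either direction. Red rows stand in several classes beside pale rows of the same class, and replicate 2 of LPC + dantrolene is pale or blue in rows where the other 8 treated libraries are red.

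The ISWI proteins and the other SNF2-family proteins held 6 of the 13 members called with LPC. ATRX, which deposits histone H3.3 at repeats and telomeres, lies on chromosome X, 61584028 to 61872341 of Sscrofa11.1 in RefSeq. Its level was 7.34, 6.48 and 3.31 CPM in vehicle, 29.1, 39.9 and 39.9 with LPC, 15.9, 54.2 and 24.1 with dantrolene and 27.4, 6.9 and 37.1 with LPC + dantrolene, for replicates 1 to 3 as in all such lists below. All treated libraries except replicate 2 of LPC + dantrolene were above every vehicle library. The LPC difference was 2.66 (SE 0.41) on the log2 scale with an edgeR adjusted p of 2.27e-06.

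SMARCAD1, a remodeler linked to heterochromatin upkeep behind replication forks, lies on chromosome 8, 125410221 to 125488471. It was at 5.2, 4.03 and 3.25 CPM in vehicle, 22.1, 28.7 and 18 with LPC, 11.8, 24.9 and 17.1 with dantrolene and 18.4, 4.97 and 22 with both. Its LPC rise of 2.46 (SE 0.39; log2) had an edgeR adjusted p of 3.89e-06. As for ATRX, the LPC and dantrolene groups did not overlap vehicle, while LPC + dantrolene did through its replicate 2 alone.

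SMARCA5 and SMARCA1 are the ATPases of the ISWI complexes, which space nucleosomes. SMARCA5 (chromosome 8, 84184572 to 84224943) gave 27.2, 21.8 and 19.4 CPM in vehicle, 99.1, 100.4 and 76.4 with LPC, 46.6, 132 and 75.9 with dantrolene and 96, 26.7 and 101 with both. SMARCA1 (chromosome X, 106039961 to 106116156) gave 14.1, 14 and 10.9 CPM in vehicle, 35, 39.4 and 33.9 with LPC, 23.4, 38.2 and 25.9 with dantrolene and 31.5, 10.4 and 33 with both. Both rose with LPC, SMARCA5 by 2.01 (SE 0.36) and SMARCA1 by 1.47 (SE 0.35) on the log2 scale, with edgeR adjusted p of 2.51e-05 and 0.00163. SMARCA1 was not called with LPC + dantrolene, where its log2 difference was 0.94 and its edgeR adjusted p 0.0961. Without replicate 2 of that group the difference was 1.36 with an edgeR adjusted p of 0.000229.

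The BAZ proteins and BPTF carry bromodomains and serve as partner subunits of the ISWI ATPases. BAZ1A (chromosome 7, 64969626 to 65069969) was at 11.9, 15.2 and 7.67 CPM in vehicle, 38.5, 31.5 and 31.3 with LPC, 21.6, 54.1 and 39 with dantrolene and 44.2, 16 and 51.6 with both. All 9 treated libraries exceeded the 3 vehicle libraries, and the LPC rise was 1.54 (SE 0.36; log2; edgeR adjusted p 0.00137). BAZ2B (chromosome 15, 66254888 to 66411261) was at 5.25, 2.98 and 1.86 CPM in vehicle, 13.9, 14.1 and 11.4 with LPC, 7.61, 17.7 and 11 with dantrolene and 11.2, 1.24 and 14 with both. It rose by 1.96 (SE 0.44; log2; edgeR adjusted p 0.000657) with LPC, a call that DESeq2 did not make (adjusted p 0.0739). The remaining members of this class, BAZ1B, BPTF and SMARCAL1, were not called with LPC, with log2 differences of 0.16, 0.76 and -0.49, although BPTF was called higher in a fit of the vehicle and LPC groups alone and in the fit without replicate 2 of LPC + dantrolene.

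Of 7 CHD remodelers, which pair chromodomains with a SNF2-type ATPase, CHD1 and CHD9 rose. CHD1, which binds methylated H3K4 at active genes, lies on chromosome 2, 105113149 to 105205303. It measured 9.49, 6.54 and 5.46 CPM in vehicle, 29.1, 29.2 and 28.2 with LPC, 13.8, 49.4 and 22.2 with dantrolene and 29, 11.1 and 37.3 with both, so that every treated library lay above every vehicle library. The log2 rise with LPC was 2.01 (SE 0.38; edgeR adjusted p 5.75e-05).

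CHD9 (chromosome 6, 31829870 to 32071975) measured 8.73, 6.13 and 3.95 CPM in vehicle, 33.3, 36.7 and 28.3 with LPC, 12.9, 34.6 and 21.5 with dantrolene and 25.9, 4.04 and 29 with both. Its log2 rise with LPC was 2.38 (SE 0.41; edgeR adjusted p 1.04e-05), and the low LPC + dantrolene library was again replicate 2. CHD3, an ATPase of the NuRD deacetylase complex, was at 242, 384 and 338 CPM in vehicle and 276, 227 and 303 with LPC, overlapping groups with a log2 difference of -0.26 (SE 0.33; edgeR adjusted p 0.724). CHD5, CHD6, CHD7 and CHD8 had LPC differences from -0.45 for CHD5 to 0.14 for CHD7, and 5 of the 7 CHD members were not called in any comparison with vehicle.

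In the SWI/SNF complex, which evicts and slides nucleosomes at enhancers and promoters, 1 of 10 members rose. This was ARID2 (chromosome 5, 76637385 to 76800155), a subunit of the PBAF form of the complex. Its level was 7.54, 5.2 and 5.64 CPM in vehicle, 19.2, 20.2 and 15.8 with LPC, 14.1, 27 and 15.3 with dantrolene and 25.7, 5.09 and 23.6 with both, a log2 rise with LPC of 1.58 (SE 0.38; edgeR adjusted p 0.00174). Without replicate 2 of LPC the edgeR adjusted p became 0.0515.

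The catalytic subunits of SWI/SNF did not pass the test. SMARCA4 (BRG1) was at 178, 145 and 151 CPM in vehicle and 142, 87.6 and 155 with LPC, with a log2 difference of -0.30 (95% interval -0.94 to 0.34). SMARCA2 (BRM) was at 90.2, 72.1 and 59.7 CPM in vehicle and 82.6, 85.6 and 110.1 with LPC, with a difference of 0.32 (95% interval -0.32 to 0.97). ARID1A and ARID1B are the large subunits of the canonical BAF form that stand where PBAF has ARID2. In both, every treated group overlapped vehicle, though in ARID1A the LPC + dantrolene libraries lay above those of dantrolene, as in 2.54% of all genes. ARID1A was at 85, 76.7 and 62.8 CPM in vehicle, 76.2, 30.9 and 67.3 with LPC, 66.1, 53.8 and 57.8 with dantrolene and 68.3, 75.4 and 75.2 with both. ARID1B was at 95.7, 90.5 and 68.5 CPM in vehicle, 86.1, 49 and 88.8 with LPC, 88.1, 75.3 and 72 with dantrolene and 91.3, 58 and 86.4 with both. In both genes the lowest of the 12 libraries was replicate 2 of LPC, and the log2 differences with LPC were -0.36 and -0.19.

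SMARCD3, a subunit singled out after its values were seen, was the lowest of the uncalled members with LPC + dantrolene. It was at 56.6, 102 and 92.1 CPM in vehicle, 54.1, 79.9 and 68.3 with LPC, 45.7, 50.2 and 50.3 with dantrolene and 52.7, 42.2 and 38.8 with both. The dantrolene and LPC + dantrolene libraries all lay below the vehicle libraries, and the log2 differences were -0.78 and -0.91 with edgeR adjusted p of 0.145 and 0.0758.

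Among the other ARID proteins, 2 of 6 rose, and these were the paralogs ARID4A and ARID4B, retinoblastoma-binding proteins of the SIN3 corepressor. ARID4A (chromosome 1, 187385324 to 187452558) was at 6.3, 2.1 and 3.37 CPM in vehicle, 20.4, 14.3 and 17.3 with LPC, 7.99, 23 and 8.9 with dantrolene and 14.7, 4.66 and 16.5 with both. ARID4B (chromosome 14, 55924333 to 56082209) was at 18.8, 13 and 10.3 CPM in vehicle, 40.5, 48.9 and 42.5 with LPC, 24.7, 49.2 and 36 with dantrolene and 45.4, 15.4 and 45.9 with both. The LPC groups lay wholly above vehicle, with log2 rises of 2.13 (SE 0.41) and 1.65 (SE 0.36) and edgeR adjusted p of 6.02e-05 and 0.000443. ARID5B, a partner of the demethylase PHF2, was at 186, 185 and 143 CPM in vehicle and 281, 169 and 313 with LPC, and its difference of 0.57 (SE 0.33; edgeR adjusted p 0.439) did not pass. ARID3A was near the detection limit, with 13, 0 and 14 counts in vehicle, so a count of 0 in replicate 2 allows up to 0.175 CPM, and its LPC difference of 0.54 had an SE of 0.95. ARID5A and ARID3B had log2 differences with dantrolene of -0.95 and -0.73 with edgeR adjusted p of 0.0728 and 0.32.

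**Figure D2:**
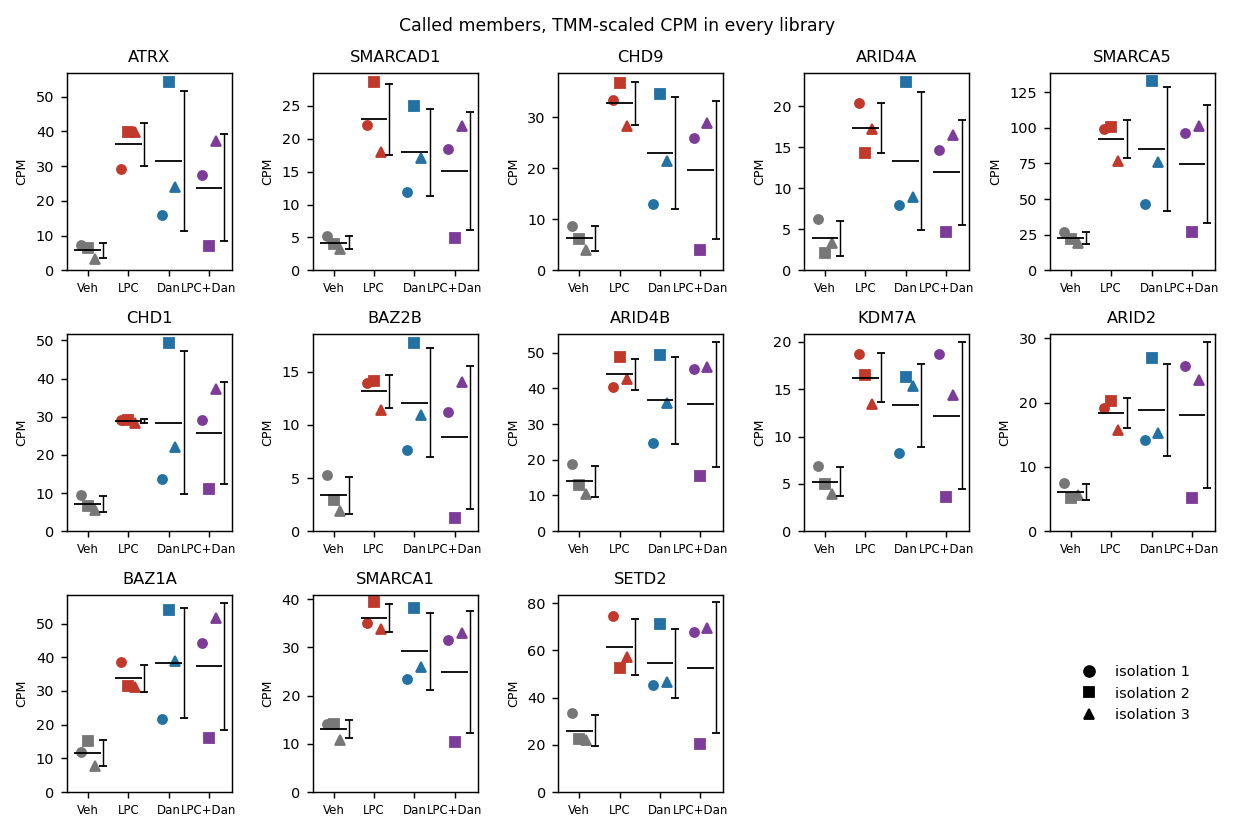
TMM-scaled CPM of the 13 members called with LPC in each of the 12 libraries, by group (Veh is vehicle and Dan is dantrolene). Symbols mark the replicate numbers, taken as the 3 isolations, with a line at each group mean and bars of 1 SD (n = 3). Every panel has its own axis from 0. In each panel the LPC and dantrolene libraries lie above the vehicle libraries, and the lowest LPC + dantrolene library is replicate 2 (ATRX at 6.9 against 27.4 and 37.1 CPM).

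In the class of H3K36 and H4K20 methyltransferases, 1 of 9 members rose. SETD2, the enzyme that trimethylates H3K36 along transcribed genes, lies on chromosome 13, 29884708 to 29996285. It was at 33.4, 22.3 and 22.3 CPM in vehicle, 74.7, 52.4 and 57.3 with LPC, 45.4, 71.3 and 46.7 with dantrolene and 67.8, 20.6 and 69.5 with both. The LPC and dantrolene libraries were above all vehicle libraries, with log2 rises of 1.24 (SE 0.35) and 1.07 (SE 0.35) and edgeR adjusted p of 0.00962 and 0.0352. These were the weakest calls of the 13, and the LPC call was lost without replicate 1 of LPC (edgeR adjusted p 0.12). It was also lost without vehicle replicate 2, without vehicle replicate 3, and with the replicate block and a trend on gene span removed. The dantrolene call was lost in 9 of 23 alternatives, among them the fit with the isolation as a replicate block (edgeR adjusted p 0.062).

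NSD1, NSD2 and NSD3, which place the lower methylation states of H3K36, had LPC differences of 0.55, -0.28 and 0.23, none of which passed. The H4K20 enzymes KMT5A, KMT5B and KMT5C were at -0.39, 0.29 and -0.68. All 3 LPC libraries of KMT5A and of KMT5C lay below vehicle, but the edgeR adjusted p were 0.624 and 0.36. SETD3, known mainly as an actin histidine methyltransferase, and SETD5 were not called either.

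None of the 5 members in the class of H3K4 methyltransferases passed the test. KMT2E, a trithorax-family protein placed in this class by its name and not by any measured activity, was nearest. It was at 45.4, 32.2 and 18.3 CPM in vehicle, 64.8, 56.4 and 64.3 with LPC, 44, 79.3 and 52.1 with dantrolene and 61.1, 22.9 and 88.1 with both. The LPC libraries did not overlap vehicle, and the log2 difference was 0.95 (SE 0.35; edgeR adjusted p 0.0861). KMT2E was called higher with LPC in some alternatives. These were a threshold of 0.1, a filter of at least 10 counts in every sample, a fit of the vehicle and LPC groups alone, and the fit without replicate 2 of LPC + dantrolene. SETD7, a monomethyltransferase of H3K4 and other proteins, was at 239, 187 and 169 CPM in vehicle, 254, 249 and 258 with LPC, 226, 184 and 198 with dantrolene and 202, 100.5 and 191 with both. Its LPC libraries lay above those of vehicle and of LPC + dantrolene, the latter as in 4.93% of all genes. The differences were 0.36 (edgeR adjusted p 0.641) from vehicle and -0.62 (edgeR adjusted p 0.775) from LPC to LPC + dantrolene. Replicate 2 of LPC + dantrolene, the lowest library at 100.5 CPM, enters the last value. KMT2B, KMT2C and SETD1A had LPC differences of -0.52, 0.01 and -0.50.

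The H3K27 methyltransferases EZH1 and EZH2, the catalytic subunits of Polycomb repressive complex PRC2, and ASXL1 and ASXL2, cofactors of the H2A deubiquitinase BAP1, gave 0 calls of 4. EZH2 was at 10.1, 8.53 and 7.38 CPM in vehicle, 11.4, 4.24 and 8.44 with LPC, 6.02, 7.2 and 8.4 with dantrolene and 6.89, 6.52 and 6.02 with both. EZH1 was at 78.8, 44.9 and 57.4 CPM in vehicle, 39.2, 49.6 and 47.9 with LPC, 78.9, 42.7 and 61.4 with dantrolene and 49, 83.7 and 64.6 with both. ASXL1 was at 39.5, 56 and 44.5 CPM in vehicle, 41.1, 17.3 and 39.8 with LPC, 44.7, 34.8 and 35.6 with dantrolene and 38.7, 49.9 and 38.1 with both. The groups overlapped with vehicle in all of these except for EZH2 with LPC + dantrolene, which lay below vehicle by 0.42 (SE 0.37) on the log2 scale (edgeR adjusted p 0.794). With LPC the log2 differences were -0.11 for EZH2 (95% interval -0.85 to 0.63), -0.41 for EZH1 (95% interval -1.05 to 0.24) and -0.51 for ASXL1 (95% interval -1.17 to 0.15).

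Of 15 histone lysine demethylases, 1 rose. KDM7A, which removes methyl groups from H3K9 and H3K27, lies on chromosome 18, 9581468 to 9664750. It was at 6.87, 4.96 and 3.89 CPM in vehicle, 18.7, 16.5 and 13.5 with LPC, 8.27, 16.3 and 15.3 with dantrolene and 18.7, 3.6 and 14.3 with both, a log2 rise with LPC of 1.63 (SE 0.39; edgeR adjusted p 0.00162). The other 14 ranged with LPC from -0.61 for KDM6B, an H3K27 demethylase, to 0.43 for KDM1B, a flavin-dependent H3K4 demethylase.

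Values of 2 further demethylases were chosen after they were seen. KDM1B was at 4.2, 4.38 and 3.49 CPM in vehicle and 7.72, 8 and 9.66 with dantrolene, groups that did not overlap, with a log2 difference of 1.07 (edgeR adjusted p 0.103). KDM5D, a Y-linked H3K4 demethylase, was at 2.62, 1.81 and 2.09 CPM in vehicle, 1.38, 2.71 and 1.54 with LPC, 4.54, 1.33 and 3.87 with dantrolene and 3.95, 4.78 and 4.01 with both. The sex of the hearts in each pool is not given in the sources used here, and reads could be split between it and its X-linked homolog KDM5C. Among the other SETD proteins 0 of 3 were called. SETD4 was at 1.62, 4.67 and 3.66 CPM in vehicle and 1.95, 1.68 and 2.01 with LPC, the lowest LPC difference of any member at -0.81 (SE 0.50; edgeR adjusted p 0.49), and SETD9 at 3.39, 2.51 and 2.5 CPM in vehicle and 1.49, 2.77 and 1.23 with LPC, a difference of -0.62 (SE 0.52; edgeR adjusted p 0.628).

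Dantrolene alone also raised 13 members, which by name were those called with LPC. These are 19.1% of the members, against 7.54% of all genes. Both comparisons used the same 3 vehicle libraries, so that the lists are not independent. With the isolation as a replicate block the dantrolene list held 11, without SETD2 and SMARCA1 (edgeR adjusted p 0.062 and 0.0573), whereas the LPC list held all 13. The rises ran from 1.07 for SETD2 to 2.46 for ATRX on the log2 scale, with edgeR adjusted p from 1.14e-05 to 0.0352. Replicate 2 of dantrolene was the highest of all 12 libraries in 13 of the 68 members, and replicate 1 the lowest of its group in each of the 13 called. Without dantrolene replicate 2 the count was 6, and without vehicle replicate 2 it was 8. No member was called lower, where 1.26% of all genes were. At an unadjusted p under 0.05, 15 members were higher and 2 lower, where 1611 and 535 of all 13216 genes were. DESeq2 called 0 members lower, whereas a fit of the dantrolene and vehicle groups alone called ARID5A and SMARCD3 lower. The median log2 difference over members was 0.00 with dantrolene, against -0.11 over all genes, and with total counts 0.24 against 0.13.

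With LPC + dantrolene, 11 members were higher than in vehicle and 0 lower, 16.2% of members against 6.23% of all genes for higher calls and 0.9% for lower ones. The vehicle libraries were again the same. The 2 of the 13 not called were SETD2, at 1.02 (SE 0.35; edgeR adjusted p 0.0571), and SMARCA1. The 11 calls ranged from 1.22 for KDM7A to 2.06 for ATRX on the log2 scale, but CHD1 and BAZ1A alone among them kept all 3 libraries above vehicle. Replicate 2 of this group exceeded the highest vehicle library in 2 of the 13 members called with LPC, whereas each of the other 8 treated libraries did so in 13 of 13. The 13 were chosen by their LPC libraries, so the count for those libraries follows from the choice. In the other 55 members replicate 2 did so in 14, within the 7 to 17 of the other treated libraries. As a share of all counts, the 13 genes took 0.00889 to 0.0149% in vehicle, 0.0113% in replicate 2 of LPC + dantrolene and 0.0256 to 0.0645% in the other treated libraries. Without that library 17 members were higher, adding SETD2, SMARCA1, BPTF, KDM1B, KMT2E and NSD1, and 1 was lower, ARID5A at -0.91 (edgeR adjusted p 0.0495), while the share of all genes called higher also went up, from 6.23% to 12.6%. Leaving out vehicle replicate 2 gave 5, and so did leaving out LPC + dantrolene replicate 1. At an unadjusted p under 0.05, 15 were higher and 2 lower, where 1425 and 497 of all 13216 genes were. DESeq2 called 8 higher, without BAZ2B, CHD9 and KDM7A, and 1 lower, SMARCD3.

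Between LPC + dantrolene and LPC, 0 of 68 were called in either direction, where 0.219% of all genes were higher and 0.288% lower. At an unadjusted p under 0.05, 4 members were higher and 0 lower, where 442 and 432 of all 13216 genes were. DESeq2 called 0. The differences ran from -0.74 for CHD9 (95% interval -1.50 to 0.03) to 1.17 for KDM5D. For ATRX the difference was -0.61 (95% interval -1.36 to 0.15, edgeR adjusted p 0.866). Replicate 2 of LPC + dantrolene enters these values. Without that library 0 members were called against LPC, and 0 against dantrolene. Over the alternatives they ran from -1.125 to -0.27 for CHD9 and from -1.08 to -0.19 for ATRX. The libraries of LPC + dantrolene lay wholly above those of LPC in 3 members, against 4.86% of all genes, and wholly below in 4, against 4.93%. Between LPC + dantrolene and dantrolene the counts were again 0 and 0, with 0.0151% of all genes higher and 0.00757% lower, and none by DESeq2. An unadjusted p under 0.05 was reached by 1 member higher and 0 lower, against 102 and 67 of all 13216 genes. Here 4 members lay wholly above, against 2.54% of all genes, and 1 wholly below, against 2.17%. A p that misses the threshold does not show equal levels.

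The effect of LPC was tested for a difference between cells without and with dantrolene, as an interaction. It was smaller with dantrolene in 10 members, 14.7% against 4.49% of all genes, and larger in 0, against 0.159%. The 10 were ATRX, SMARCAD1, CHD9, SMARCA5, ARID4A, CHD1, BAZ2B, SMARCA1, ARID4B and KDM7A. For ATRX, the LPC effect was 2.66 (SE 0.41) on the log2 scale without dantrolene and -0.40 (SE 0.38) with it, an interaction of -3.06 (SE 0.55; edgeR adjusted p 0.000344). For CHD9 the effects were 2.38 and -0.23, an interaction of -2.61 (SE 0.55, edgeR adjusted p 0.00182). The effects with dantrolene rest in part on replicate 2 of LPC + dantrolene. Over the alternatives they ran from -0.87 to 0.25 for ATRX and from -0.62 to 0.25 for CHD9. Each of the 10 was called higher with either agent alone, and none was called between LPC + dantrolene and either agent. For ARID2, BAZ1A and SETD2 the interactions of -1.64, -1.58 and -1.29 did not pass (edgeR adjusted p 0.0519, 0.0505 and 0.124). With the isolation as a replicate block 6 members were called, where 2.1% of all genes were, and with total counts alone 4, where 1.76% were. With the block and a trend on gene span removed 0 members were called, as were 0 of all 10811 genes in that fit. Leaving out LPC replicate 2 gave 0 members (0.0293% of all genes), dantrolene replicate 2 gave 2 (0.228%), vehicle replicate 2 gave 4 (1.6%) and LPC replicate 1 gave 5 (1.88%). It was 9 without LPC + dantrolene replicate 2, and 7 to 12 without any 1 of the other 7 libraries. At an unadjusted p under 0.05, 3 members had a larger and 13 a smaller effect, where 377 and 1542 of all 13216 genes did. DESeq2 called 0 members larger and 7 smaller, without CHD9 (adjusted p 0.0867), KDM7A and BAZ2B.

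**Figure D3:**
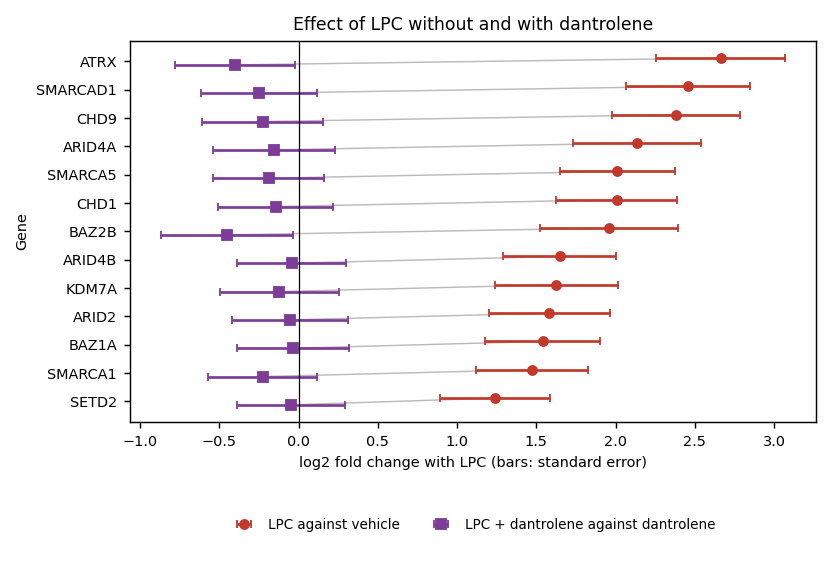
Fitted log2 effect of LPC in the 13 members called with LPC, without dantrolene (circles, LPC against vehicle) and with it (squares, LPC + dantrolene against dantrolene), with bars of 1 standard error. All circles lie between 1.24 and 2.66, and all squares lie below 0, between -0.45 and -0.04. The genes were chosen by the test that gives the circles, so the circles are high by that choice. The gap to the squares is therefore no separate evidence. Replicate 2 of LPC + dantrolene enters every square. Over the alternatives squares changed sign, with ATRX reaching 0.25 and CHD1 0.52.

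The members were long genes, and gene span moved with the calls. Span was taken from RefSeq as start to end on Sscrofa11.1, introns included, for 67 of 68 members (KDM5D had none). The median span was 78.3 kb for members against 30.5 kb for all tested genes with a span (81.8% of them). The 13 called with LPC had a median of 100 kb, from 40.4 kb for SMARCA5 to 288 kb for ATRX, and the uncalled members with a span a median of 68.9 kb. Over all genes, LPC raised 2% of the genes with spans up to 12.1 kb and 16.5% of those from 75.6 kb. In that longest class, 11 of 35 members were raised by LPC, 11 by dantrolene, where 14.7% of all such genes were, and 9 by LPC + dantrolene, where 11.9% were. From 30.5 to 75.6 kb, 2 of 19 members were raised in each of these comparisons, where 13.9%, 12% and 9.77% of all such genes were. From 12.1 to 30.5 kb 0 of 10 were, where 5.29%, 4.51% and 3.74% of all such genes were. Up to 12.1 kb 0 of 3 were, where 2%, 1.96% and 1.74% were. Some members of long span were not called, among them ARID1B at 436 kb and KDM4C at 436 kb. With each library's trend on span removed, an alternative chosen after seeing the data, 13, 12 and 9 members were higher with LPC, dantrolene and LPC + dantrolene, and the interaction was called in 8. The share of all genes called in that fit is not given here, so these counts do not set the members apart from other genes.

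**Figure D4:**
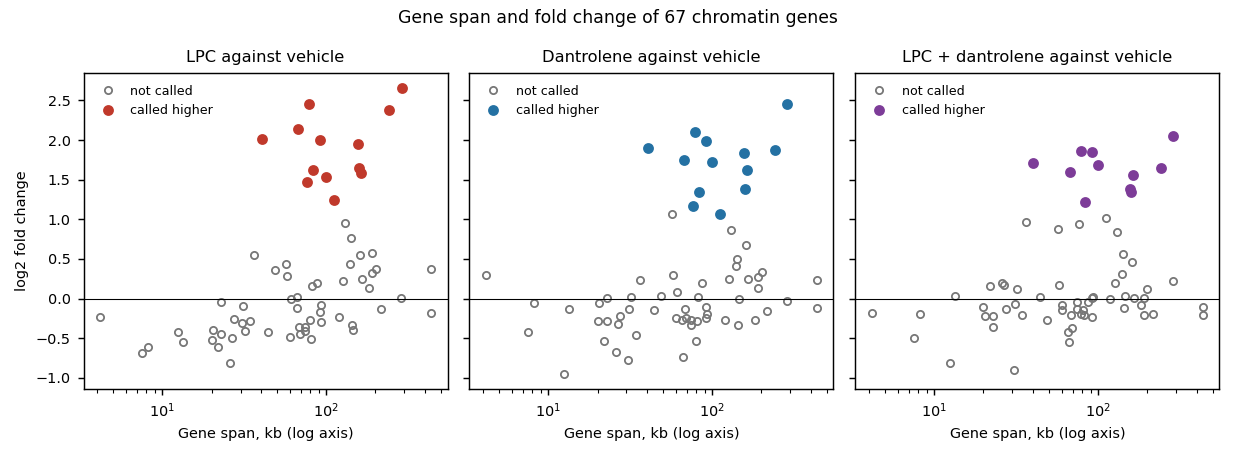
Log2 fold change against gene span (kb, log axis) for the 67 members with a RefSeq span, in each comparison with vehicle. Filled points are members called higher and open points those not called. The called members span 40.4 to 288 kb, and no member of shorter span was called. Only 3 members spanned up to 12.1 kb and 10 from 12.1 to 30.5 kb, where LPC raised 2% and 5.29% of all genes.

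Partner subunits and related enzymes outside the name rule were read from lists of 101 genes, of which 97 were listed and 96 tested. With LPC 11 of the 96 were higher, where 8.54% of all genes were, and 0 lower, with dantrolene 11 and 0, against 7.54% of all genes higher, and with LPC + dantrolene 8 and 0, against 6.23%. Their median log2 differences were -0.26, -0.19 and -0.04. The calls with LPC included PBRM1, the PBAF subunit beside ARID2, at 1.89 (SE 0.37; edgeR adjusted p 0.000103), and SS18 of BAF at 1.47 (SE 0.35; edgeR adjusted p 0.00158). Among PRC2 and PR-DUB partners 3 of 13 rose. They were SUZ12, a core subunit of PRC2, at 1.54 (SE 0.38; edgeR adjusted p 0.00226), MTF2 and AEBP2, while EZH1 and EZH2 gave the values above. ASH1L and SETDB2 were the 2 called of 12 in the list of H3K9, H3K79, ASH1L and SMYD enzymes, and HCFC2 was the 1 called of 12 COMPASS partners, which assemble with the KMT2 enzymes. HAT1 was the 1 called of 8 acetyltransferases, HDAC2 the 1 of 10 NuRD partners, and HELLS the 1 of 17 in the list of INO80, SRCAP and TIP60 remodelers. None of 8 arginine methyltransferases passed in any comparison with vehicle. The interaction was called in 3 of the 96, PBRM1, HAT1 and SUZ12, with a smaller LPC effect in the presence of dantrolene, where 4.49% of all genes were.

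Of the families in the rule, 7 genes carried no symbol in the count table and received one from the table of gene names by identifier. These were SMARCC2, BAZ2A, CHD4, CHD2, KDM3B, KMT2A and SETD1B, all tested. None was called in a comparison with vehicle. Their log2 differences ran from -0.51 for SETD1B with dantrolene to 0.59 for CHD2 with LPC, with a lowest edgeR adjusted p of 0.459. CHD4, the main NuRD ATPase, had differences of -0.14, -0.09 and 0.04 with LPC, dantrolene and both (SE 0.33 in each).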

How the data were processed

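RNA-seq of 12 paVIC libraries was used. Per the authors' methods, mRNA reads were aligned with STAR, adjusted for the isolation with ComBat and tested with DESeq2, whereas the submitters' processing notes name HISAT2 2.0.5, R 4.1.1, DESeq2 1.32.0 and Sscrofa11.1. The read counter, annotation release and strand setting are not given in the sources used here. The authors deposited whole-number counts per gene after that adjustment, not scaled for library size, so part of the spread between isolations had been removed before any test and p-values may be too small. Their tables of comparisons, which hold fold changes and p-values, were not used. Of 13216 genes tested, 10923 had a symbol in the table and 572 took one from the gene-name table.

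Genes were filtered with filterByExpr, scaled by TMM and tested with edgeR 4.0.16 (R 4.3.3) in 1 fit of all 12 libraries by group, called at an adjusted p of 0.05 over all genes. Fold changes are log2 with standard errors and 95% intervals. The code was tested on simulated data. Values in every sample were given for the called members with the smallest p, those called in the interaction, the member of each class with the largest difference and further reference members set by the same rule. Members and lists were chosen with earlier results of these data known. Libraries of equal replicate number were taken as paired by isolation, which the labels do not state. The median correlation of their deviations from group means was -0.152 over 18 pairs, after the authors' adjustment for isolation. Over 36 pairs of different number and group it was 0.108. Alternatives were DESeq2 1.42.0, other scalings and filters, the isolation block, leaving out each library and, chosen after seeing the data, removal of a trend on gene span. Sequences are not shown.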

Additional observations from a re-analysis of the deposited data

Results flagged for a closer look

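The effect of LPC differed between cells without and with dantrolene by the interaction test in 10 members, and in all of them the effect was smaller with dantrolene. As the log2 effect with dantrolene less that without it, the values were -3.06 for ATRX, -2.71 for SMARCAD1, -2.61 for CHD9, -2.41 for BAZ2B, -2.29 for ARID4A, -2.20 for SMARCA5, -2.15 for CHD1, -1.75 for KDM7A, -1.70 for SMARCA1 and -1.69 for ARID4B. The edgeR adjusted p ran from 0.000344 for ATRX to 0.0403 for KDM7A. The number called ranged from 0 to 12 over the alternatives, none of the 10 was called in every alternative, and replicate 2 of LPC + dantrolene, which stood apart, enters each of these values. Without that library 9 were called, from -2.70 for ATRX to -1.40 for ARID4B. The cause was not tested.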

How the results depend on the processing

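For members higher with LPC, all 23 alternatives gave 12 to 15 of 68, and 10 of the 13 were called in each of them. With dantrolene 6 of the 13 were called in every alternative, and with LPC + dantrolene 5 of the 11 (ATRX, BAZ1A, CHD1, SMARCA5 and SMARCAD1). Leaving out 1 library in turn gave 6 to 15 members higher and 0 to 1 lower with dantrolene, 5 to 17 higher and 0 to 1 lower with LPC + dantrolene, and 0 to 12 in the interaction. Where no share of all genes stands beside a count from an alternative, DESeq2 included, the count shows only how calls on members held. A fit of the groups compared alone called 2 lower with dantrolene, a threshold of 0.1 called 1 lower with dantrolene and 1 with LPC + dantrolene, and DESeq2 called 1 lower with LPC + dantrolene. The interaction was called in 4 members with total counts alone, in 6 with the isolation as a replicate block and in 0 with the span trend removed as well as the replicate block. The block gave 13, 11 and 9 members higher in the comparisons with vehicle, and with the span trend also removed 12, 10 and 8. The median over members moved to 0.11 with LPC and 0.24 with dantrolene under total counts alone, and with dantrolene lay between -0.018 and 0.12 when single libraries were left out. The median changed sign in 6 of 22 alternatives with LPC, 4 with dantrolene and 5 with both. Among the named members, 3527 values kept their side of the threshold, 133 lost a call and 33 gained one. Of the values called in either fit none changed sign, and of the 2589 called in neither, 137 did. The causes were not tested. Correction for coding length, alone and with the block, was not run for want of lengths. The authors had already adjusted the counts for the isolation, and with 3 libraries a group, small changes could have been missed.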
